A study of Mus musculus with 2 samples.

Results

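The 7 genes Rgs5, Cspg4, Kcnj8, Abcc9, Higd1b, Cox4i2 and Ndufa4l2, widely used to mark pericytes, were measured in the developing mouse lung. They were taken by name, through their Ensembl identifiers, and all 7 were present among the 43346 genes of the deposited tables. The tissue was whole lung from healthy embryos of the B6NCrl strain at embryonic day 15.5, with males and females pooled and with no treatment or engineered allele named in the labels. Replicate 1 was made from 78 embryos and replicate 2 from 62 embryos, and each pool gave 1 library, so differences of pool, dissection and library preparation cannot be told apart. Both libraries form 1 group, so the design holds no contrast between conditions, and the results are levels, their order, their transcripts and their spread between the pools.

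Pericytes are mural cells that sit on capillaries inside the basement membrane that they share with the endothelium. Endothelial PDGF-B recruits them through the receptor PDGFRB, and they share much of their gene use with vascular smooth muscle cells, so none of the markers is exclusive to them. The 7 genes encode a potassium channel and its regulatory subunit (Kcnj8 and Abcc9), a regulator of G-protein signalling (Rgs5), a membrane proteoglycan known as NG2 (Cspg4), and 3 mitochondrial proteins (Cox4i2, Ndufa4l2 and Higd1b).

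Kcnj8 and Abcc9 encode partners of the vascular ATP-sensitive potassium channel, the pore Kir6.1 and the sulfonylurea receptor SUR2, and they are neighbours on the same strand of chromosome 6, separated by 16.2 kb. The annotated transcripts of Abcc9 differ in their last coding stretch, which is what separates the receptor forms SUR2A and SUR2B. SUR2A is known from heart and skeletal muscle and SUR2B from smooth muscle, and the end of SUR2B is known to resemble that of SUR1, the product of Abcc8. The coding ends are shown because the transcript results turn on them, with the stop codon in capitals, 5′ to 3′, from GENCODE M21 on GRCm38. The end of Abcc9-203 lies at chr6:142590366-142590503, that of Abcc9-202 at chr6:142594005-142594142 and that of Abcc8-201 at chr7:46104624-46104761, all on the minus strand.
Abcc9-203: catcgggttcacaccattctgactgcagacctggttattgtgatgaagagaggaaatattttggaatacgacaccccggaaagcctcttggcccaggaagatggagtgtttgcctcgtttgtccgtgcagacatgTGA
Abcc9-202: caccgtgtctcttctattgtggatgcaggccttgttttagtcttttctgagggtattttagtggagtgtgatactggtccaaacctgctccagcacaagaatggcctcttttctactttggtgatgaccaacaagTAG
Abcc8-201: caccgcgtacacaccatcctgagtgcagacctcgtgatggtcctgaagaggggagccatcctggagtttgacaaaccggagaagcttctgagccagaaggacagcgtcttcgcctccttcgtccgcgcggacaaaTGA

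Each end holds 135 coding bases before the stop codon. The end of Abcc9-203 equalled that of Abcc8-201 at 94 of these positions (69.6%) and that of Abcc9-202 at 69 (51.1%). Abcc9-202 and Abcc8-201 were equal at 70 positions (51.9%). By sequence, the end of Abcc9-203 was thus the one closer to SUR1, the property by which SUR2B is known.

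Promoters of the linked pair are shown because both genes were read in the same libraries and lie side by side. They come from RefSeq on GRCm38.p6 and run from 250 bases before to 50 after the start of the gene, Kcnj8 at chr6:142571565-142571864 and Abcc9 at chr6:142702225-142702524, both read on the minus strand. Capitals mark motif matches, which lie on the other strand and so read as the reverse complement of the letters searched.
Kcnj8: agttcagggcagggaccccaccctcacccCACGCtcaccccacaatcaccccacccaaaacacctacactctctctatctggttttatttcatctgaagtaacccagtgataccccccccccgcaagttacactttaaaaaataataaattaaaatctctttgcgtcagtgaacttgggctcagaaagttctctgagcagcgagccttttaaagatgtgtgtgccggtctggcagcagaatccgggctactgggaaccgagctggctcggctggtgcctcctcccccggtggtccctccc
Abcc9: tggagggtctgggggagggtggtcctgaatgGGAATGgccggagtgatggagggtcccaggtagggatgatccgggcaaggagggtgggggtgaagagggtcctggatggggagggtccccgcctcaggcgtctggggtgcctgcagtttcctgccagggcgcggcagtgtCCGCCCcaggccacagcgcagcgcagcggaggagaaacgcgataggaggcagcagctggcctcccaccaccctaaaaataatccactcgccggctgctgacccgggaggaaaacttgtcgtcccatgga

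Windows were at hand for Rgs5, Cspg4, Kcnj8 and Abcc9. A set of 8 motifs was searched on both strands, and each share below is over 32851 promoters of the same length. The letters GCGTG, a core of the hypoxia-inducible factor site, occurred once in Kcnj8 (from position -221, counted from the start of the gene) and once in Cspg4 (from position 38), and in 32.4% of all promoters. The GC box GGGCGG occurred in Abcc9 and at 2 places in Cspg4, and in 35.7% of all promoters. CATTCC, a core bound by TEAD factors, occurred once in Abcc9 and in 14.7% of all promoters. No match was found in the 4 windows for ACGTG (19.6% of all promoters), the RBPJ core GTGGGAA (6.38%), the E-box CACGTG (7.15%, which also holds ACGTG), the forkhead core TGTTTAC (3.65%) or the TATA box TATAAA (13.6%). No motif was shared by Kcnj8 and Abcc9, and Rgs5 held none of them. The GC content was 65.7% for Abcc9, 60.0% for Cspg4, 53.3% for Kcnj8 and 52.3% for Rgs5, beside a median of 52.7% over all promoters.

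All 7 genes were detected, with at least 1 TPM (a relative level corrected for transcript length and library size) in both libraries. The same held for 33.6% of all genes and for 60.7% of protein-coding genes. Their median level was 17.6 ± 0.99 TPM (SD of the medians, n = 2), beside a median of 17.2 TPM over the 14583 detected genes, so the members lay across the middle of the detected range and not at one end of it. Ndufa4l2, the highest, exceeded Abcc9, the lowest, 19.2-fold. The libraries held 40395850 and 36601054 estimated reads, which gave each member between 246 and 2356 reads. Because whole tissue was sequenced, fewer cells of a type and less RNA per cell cannot be told apart.

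The mitochondrial genes had the 3 highest mean levels, though the intervals of Higd1b and Kcnj8 overlapped in replicate 2. Ndufa4l2, at chr10:127514967-127517154 on the plus strand, encodes a hypoxia-inducible relative of the respiratory chain protein NDUFA4 and was at 75.4 and 69.7 TPM in replicates 1 and 2 (72.6 ± 3.99, SD, n = 2). Cox4i2, at chr2:152754173-152765037 on the plus strand, encodes the alternative form of subunit 4 of cytochrome c oxidase and was at 68.5 and 62.6 TPM (65.6 ± 4.12). The intervals deposited with the TPM values overlapped for this pair in both libraries, and their ratio was 1.11 ± 0.00876. Both genes were high in the detected range: 83.8% of detected genes were lower than Ndufa4l2 and 82.1% lower than Cox4i2.

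Higd1b, at chr11:102835849-102838040 on the plus strand, encodes a small mitochondrial protein of the hypoxia-inducible domain family. Its level was 25.4 and 20.3 TPM (22.9 ± 3.66), clearly below Cox4i2, which exceeded it 2.69-fold and 3.09-fold. With 336 and 246 reads it was the member with the fewest reads, so its level was the least precise, with intervals of 22.4 to 28.1 and 17.6 to 22.8 TPM.

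Kcnj8, at chr6:142564837-142571614 on the minus strand, was at 18.4 and 16.9 TPM (17.6 ± 0.99). Higd1b exceeded it 1.39-fold in replicate 1, with separate intervals, and 1.2-fold in replicate 2, where the intervals overlapped, so the order of these neighbours was not settled. Abcc9, at chr6:142587862-142702315 on the minus strand, was the lowest member at 3.99 and 3.57 TPM (3.78 ± 0.297), and 18.3% of detected genes were lower still. The channel partners therefore differed although they lie side by side: Kcnj8 exceeded Abcc9 4.6-fold and 4.75-fold (4.67 ± 0.105), and the ratio varied little between the pools.

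Cspg4, at chr9:56865033-56899870 on the plus strand, was at 11.2 and 9.82 TPM (10.5 ± 0.976). It took more reads than any other member, 2356 and 1920, but its counted transcript is 8050 bases long, so its level per length was below that of 4 members with fewer reads. Rgs5, at chr1:169655501-169695813 on the plus strand, is among the classical pericyte markers of adult tissue and was second lowest at 7.73 and 8.28 TPM (8.0 ± 0.389). Cspg4 exceeded Rgs5 1.45-fold and 1.19-fold, and Rgs5 exceeded Abcc9 1.94-fold and 2.32-fold. Of the 21 pairs of members, 19 had separate intervals and the same order in both libraries.

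**Figure D1:**
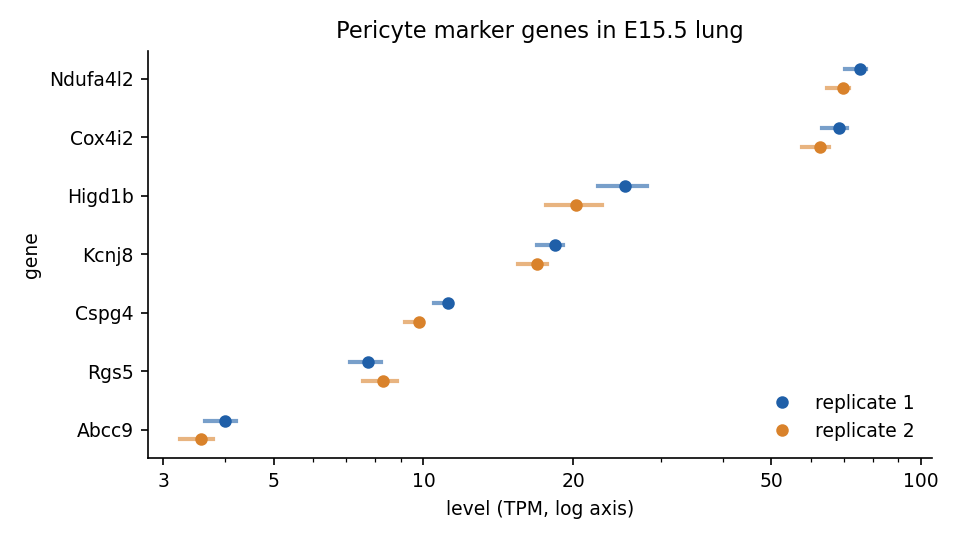
Level of each of the 7 genes in TPM (log axis) in replicate 1 (blue) and replicate 2 (orange), with points for the deposited TPM and bars for the deposited interval. Ndufa4l2 and Cox4i2 stand together at the top, and Abcc9 is lowest at 3.99 and 3.57 TPM.

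Each member was then set beside its family relatives, since a total level says little of which form of a protein family the tissue uses. For the potassium channel, the vascular forms were higher than the forms known, among other tissues, from pancreatic beta cells and neurons. The pore gene Kcnj11 was at 0.39 and 0.19 TPM, from 11 and 5 reads, and Kcnj8 exceeded it 47.1-fold and 89.2-fold. The receptor gene Abcc8 was at 1.0 and 0.44 TPM, and Abcc9 exceeded it 3.99-fold and 8.11-fold. Abcc8 differed between the pools beyond its deposited intervals (0.821 to 1.16 and 0.317 to 0.549 TPM), with a log2 difference of -1.11, while those of Kcnj11 overlapped. The scaled log2 differences of Kcnj8 and Abcc9, replicate 2 over replicate 1, were -0.04 and -0.09.

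Rgs5 belongs to the R4 family, small proteins that speed up the GTPase of G-protein alpha subunits. Of the 10 R4 genes 6 were detected, and only Rgs2 and Rgs3 were higher than Rgs5. Rgs2 was at 125 and 129 TPM and exceeded Rgs5 16.1-fold and 15.5-fold. Rgs3 was at 44.7 and 43.7 TPM and exceeded it 5.78-fold and 5.28-fold. Rgs4, its neighbour at a distance of 45.7 kb on the opposite strand, was at 6.13 and 4.91 TPM, and Rgs5 exceeded it 1.26-fold and 1.69-fold. Rgs18 and Rgs16 lay between 1.45 and 1.56 TPM. Rgs1, Rgs8 and Rgs13 were at or below 0.57 TPM. Rgs21 had 0 reads, a count that by counting error leaves room for 0.043 TPM in replicate 1 and 0.0463 TPM in replicate 2. Deposited intervals reached higher, to 0.0834 and 0.0894 TPM for Rgs21 and to 1.65 and 1.42 TPM for Rgs1. Those of Rgs8, 0.3 to 1.03 and 0.352 to 1.15 TPM, lay above its levels of 0.11 and 0.17 TPM. Rgs5 was therefore not the main R4 transcript of the whole lung.

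All 3 mitochondrial members were lower than their general relatives. Cox4i1, the common form of cytochrome c oxidase subunit 4, was at 865 and 907 TPM and exceeded Cox4i2 12.6-fold and 14.5-fold (13.6 ± 1.31). Ndufa4 was at 764 and 812 TPM and exceeded Ndufa4l2 10.1-fold and 11.6-fold (10.9 ± 1.07). Higd1a, at 54.5 and 59.9 TPM, exceeded Higd1b 2.14-fold and 2.96-fold, and Higd2a, at 144 and 157 TPM, exceeded it 5.65-fold and 7.75-fold. Higd1c was at 0 and 0.12 TPM. The paired alternatives thus made up a small part of the subunit 4 and NDUFA4 transcripts, and a larger part of the HIGD1 transcripts.

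Among proteoglycans that share the chondroitin sulfate name, Cspg5, a brain proteoglycan, was at 1.12 and 1.57 TPM and Cspg4 exceeded it 10.0-fold and 6.25-fold. The brain proteoglycan genes Ncan and Bcan were at or below 0.19 TPM. The deposited intervals of Bcan lay above its levels and reached 0.787 and 0.942 TPM. In all 11 comparisons of a member with a partner or relative the intervals were separate in both libraries. The longest annotated coding sequences of 6 member and relative pairs were 60.5% (Higd1b and Higd1a) to 75.1% (Kcnj8 and Kcnj11) equal over the aligned bases. They were not always those of the counted or leading transcripts. Over full annotated transcripts, untranslated parts included, the longest run of equal bases was 33, between Ndufa4l2 and Ndufa4.

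**Figure D2:**
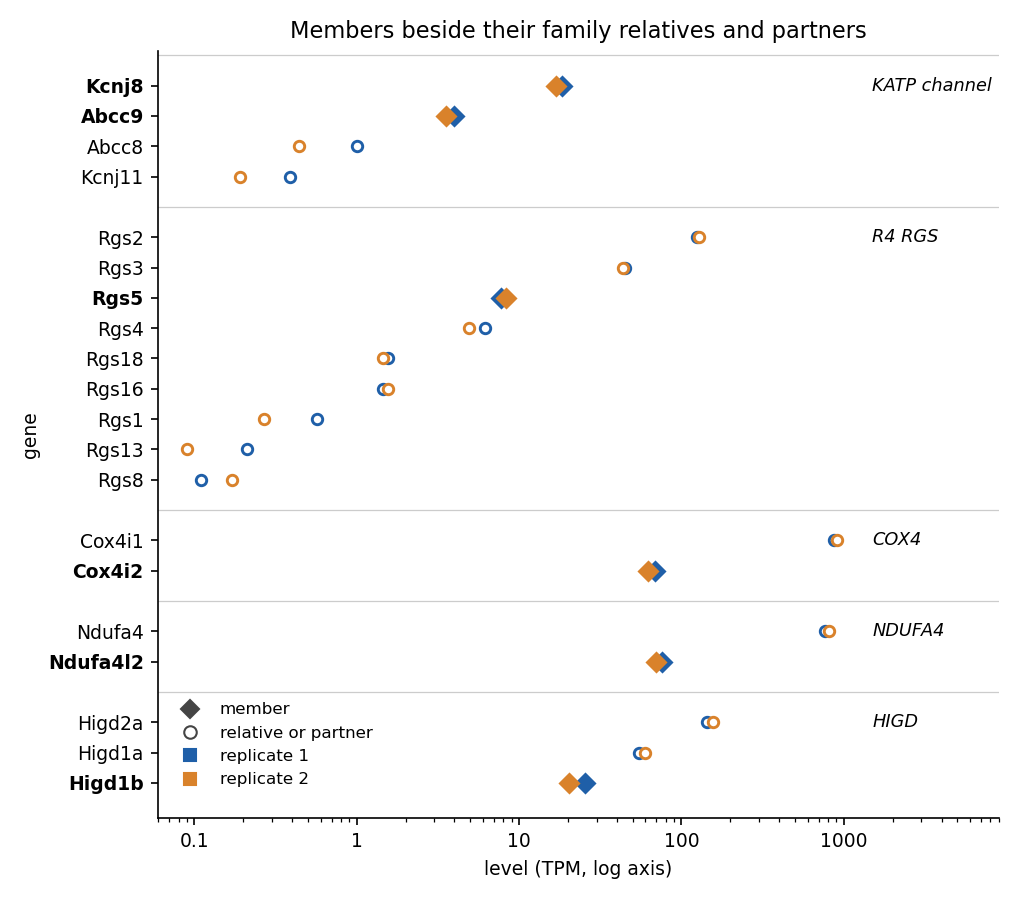
Level in TPM (log axis) of the members (diamonds) and their relatives or partners (circles) in replicate 1 (blue) and replicate 2 (orange), grouped by family, with genes at 0 in either library left out. Kcnj8 and Abcc9 stand above Kcnj11 and Abcc8, whereas Cox4i2, Ndufa4l2 and Higd1b stand below their relatives.

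The 7 genes had 14 counted transcripts, of which 8 reached 1 TPM in both libraries. The share over all transcripts was not computed, so this count has no background. Each member had the same leading transcript in both libraries, with at least 50% of the gene's TPM, beside 80.9% of all detected genes and 72.1% of detected genes with more than 1 transcript. For Cspg4, Kcnj8 and Ndufa4l2 this follows from the annotation, which has 1 counted transcript for each.

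For Abcc9, 4 transcripts were counted and 1 carried the signal. Abcc9-203 was at 3.99 and 3.57 TPM, which was 100% of the gene in both libraries, and the posterior mean shares were 91.96% and 89.47%. Abcc9-201, Abcc9-202 and Abcc9-204 were listed at 0 in both libraries, with intervals reaching no higher than 0.491 TPM. All 3 contain an exon of 176 bases at chr6:142593967-142594142 that Abcc9-203 skips, and the counted length of Abcc9-202 exceeded that of Abcc9-203 by the same 176 bases. The end shown above for Abcc9-203, which is the end like that of SUR1, was thus the one to which the reads were assigned. Reads outside that exon and its junctions fit several of these transcripts, and the intervals of Abcc9-203, 3.14 to 4.03 and 2.59 to 3.6 TPM, carry that uncertainty.

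Genes of heart and skeletal muscle, the tissues in which SUR2A is known, were present. All 6 genes of that list were detected, with summed levels of 246 TPM in replicate 1 and 396 TPM in replicate 2. Of these, 4 were higher in replicate 2 by the rule given with the pools, while Actn2 was at 21.5 and 20.8 TPM and Tnnt2 at 160 and 132 TPM. Abcc9-202 was listed at 0 in both, and the log2 difference of Abcc9 was -0.09, toward a lower level in the pool with the larger sum. Their part in the Abcc9 level was not tested.

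Higd1b had 3 transcripts that share the same coding blocks and differ in their first exons. Higd1b-203 led at 13.1 and 14.1 TPM (51.52% and 69.63% of the gene), ahead of Higd1b-201 at 8.98 and 6.16 TPM. Their intervals overlapped in replicate 1 and were separate in replicate 2. Higd1b-202 was at 3.36 TPM in replicate 1 and listed at 0 in replicate 2, where its interval reached 4.5 TPM, so the data set no difference for it. For Rgs5, Rgs5-201 held 100% and 96.15%. For Cox4i2, Cox4i2-201 held 99.01% and 100%.

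**Figure D3:**
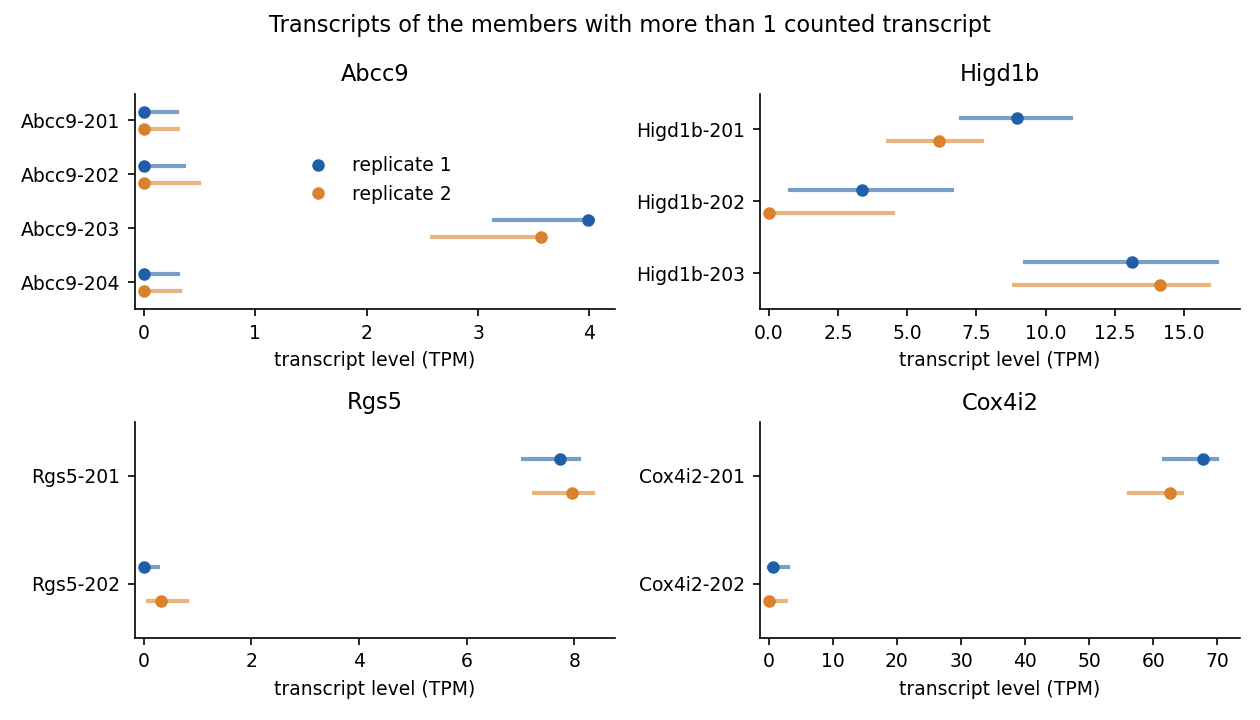
Level in TPM of each counted transcript of Abcc9, Higd1b, Rgs5 and Cox4i2 in replicate 1 (blue) and replicate 2 (orange), with points for the deposited TPM and bars for the deposited interval. Abcc9, Rgs5 and Cox4i2 each rest on 1 transcript, while Higd1b is spread over at least Higd1b-203 and Higd1b-201.

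Gene models that overlap can share reads when strand is not used in counting, and its use is not given in the sources used here. Ndufa4l2 shares 32 exonic bases with Shmt2 on the opposite strand, which was at 80.4 and 79.0 TPM. Abcc9 shares 158 exonic bases with the antisense gene 5330439B14Rik, which was at 0.03 and 0.0 TPM. The uncertainty of read assignment at gene level, given as a posterior SD of the count, was 0 in both libraries for 6 members, as for 66.6% of detected genes, and 0.19 and 0.18 reads for Abcc9.

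Between the pools, no member met the rule for a difference. A gene was called apart where its mean was at least 5 TPM, its scaled levels differed at least 2-fold and its intervals did not overlap; 41 of 11261 genes (0.364%) were, and 0 of the 7 members. With 1 library per pool there was no test. Abcc9, with a mean under 5 TPM, could not be called by this rule. The log2 differences, replicate 2 over replicate 1 after TMM scaling, ran from -0.26 for Higd1b to 0.17 for Rgs5. Their median was -0.06. Over the 6 members of at least 5 TPM it was -0.05, beside 0.01 for all genes of at least 5 TPM.

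In replicate 2, 6 members were lower and Rgs5 was higher. Of the 6 members of at least 5 TPM, 5 were lower, beside 44.7% of all genes of at least 5 TPM. Higd1b differed most among the members, and 7.73% of genes of at least 5 TPM differed more. Its deposited intervals overlapped, between 22.4 and 22.8 TPM. Cspg4, with a log2 difference of -0.12, was the only member whose deposited intervals were separate, as were those of 17.4% of genes of at least 5 TPM. Separate and lower in replicate 2, as for Cspg4, were the intervals of 13.8% of these genes. After the interval of replicate 2 was scaled as the levels were, 0 members had separate intervals. The share of all genes with separate intervals after that scaling was not computed.

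**Figure D4:**
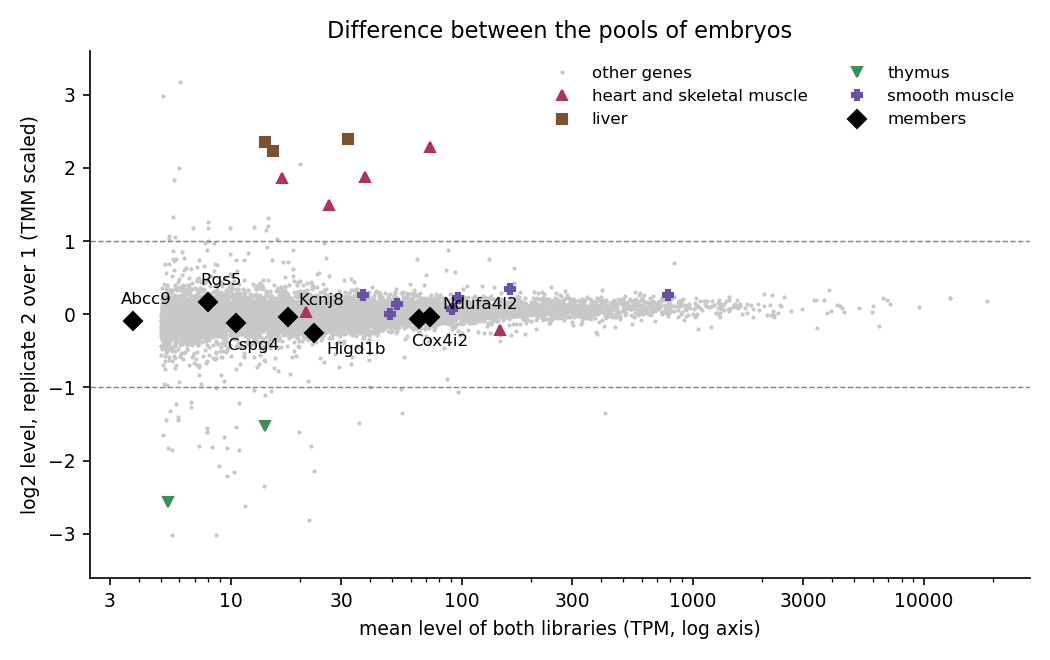
Log2 difference between the pools (replicate 2 over replicate 1, TMM scaled) against mean level in TPM (log axis) for genes of at least 5 TPM (grey) and for the 7 members (black), with lists of other tissues in colour and dashed lines at 2-fold. The members lie between -0.26 and 0.17, while liver genes lie above and thymus genes below the 2-fold lines.

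Some genes of other tissues did differ between the pools. All 3 liver genes (Alb, Afp and Apoa1) were apart, with summed levels of 21.1 TPM in replicate 1 and 102 TPM in replicate 2. Of the 6 heart and skeletal muscle genes, Myl2, Myl3, Myh7 and Acta1 were apart, all higher in replicate 2, while Tnnt2, the highest, was at 160 and 132 TPM and Actn2 had a log2 difference of 0.03. Of the 3 thymus genes, Cd3e and Lck were apart and lower in replicate 2. Ptcra was also lower there, at 6.89 and 1.06 TPM with separate intervals, but its mean of 3.97 TPM was too low to be called. The summed level of the members was 211 and 191 TPM, and the part of these tissues in the members' levels was not tested. Of 3 cartilage genes 2 were detected, from Acan at a mean of 0.335 TPM to Col2a1 at 16.7 TPM, and 0 were apart.

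The members were set beside other genes of mural cells, a list of 30 that also holds genes of smooth muscle and stroma. Detection of such a list in whole lung cannot check the label of the members. In all 28 passed the detection minimum, as did 33.6% of all genes and 60.7% of protein-coding genes. The median level of the list was 20.6 ± 0.838 TPM. Of the 21 with a mean over 5 TPM, which could be called, 0 were apart between the pools, beside 0.364% of all such genes. Named outside the rule for naming genes, Vtn was at 1.04 and 8.64 TPM with separate intervals and a mean just under that minimum, and Art3 was at 7.99 and 4.01 TPM, also with separate intervals but short of 2-fold after scaling. The highest were Mgp, an inhibitor of calcification, at 792 and 798 TPM, Nid1, a basement membrane protein, at 102 and 96.4 TPM, and Postn, a matrix protein, at 110 and 86.3 TPM. The lowest were the transcription factors Foxc1, at 0.6 and 0.65 TPM, and Tbx18, at 1.09 and 0.78 TPM. Pdgfrb, the receptor through which mural cells are recruited, was also named outside the rule for naming genes, and was at 46.8 and 45.9 TPM.

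Relative to Pdgfrb, 2 members were higher, Ndufa4l2 at 1.61 and 1.52 times its level and Cox4i2 at 1.46 and 1.37 times. The other 5 were lower in both libraries, from Higd1b at 0.544 and 0.442 times down to Abcc9 at 0.0853 and 0.0778 times. Levels of a receptor that fibroblasts also make give no number of pericytes, and whole tissue does not show which cells held the RNA. The 10 genes of endothelial signals to mural cells were detected at a median of 10.3 ± 0.29 TPM. They ran from Tgfb1 at 2.79 and 1.98 TPM to the receptor Tie1 at 72.7 and 71.7 TPM, with 0 apart.

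The lists of smooth muscle, fibroblast, endothelial and lung epithelial genes each had a higher median than the members. The 8 smooth muscle genes had a median of 71.6 ± 0.859 TPM, from Lmod1 at 3.78 and 3.95 TPM to Acta2 at 728 and 827 TPM. The median log2 difference after scaling was 0.22 over the 7 of these genes above 5 TPM, beside -0.05 over the 6 members above 5 TPM and 0.01 over all such genes. The 8 fibroblast genes had a median of 107 ± 12.1 TPM, from a mean of 14 TPM for Fgf10 to 1310 TPM for Col3a1. The 7 endothelial genes had a median of 61.0 ± 2.68 TPM, from Erg at 9.49 to Cldn5 at 102 TPM. The 4 lung epithelial genes had a median of 158 ± 0.548 TPM, from Sox9 at 53.7 to Sftpc at 6370 TPM.

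Cspg4 also marks oligodendrocyte precursors, and their defining genes were at or near 0. Olig2 had 0 reads, a count that leaves room for 0.0485 TPM in replicate 1 and 0.0522 TPM in replicate 2, and Olig1 was at 0.07 and 0.06 TPM. Of the 5 glial genes 2 were detected, with Pdgfra, which lung fibroblasts also make, at 34.1 and 31.3 TPM.

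**Figure D5:**
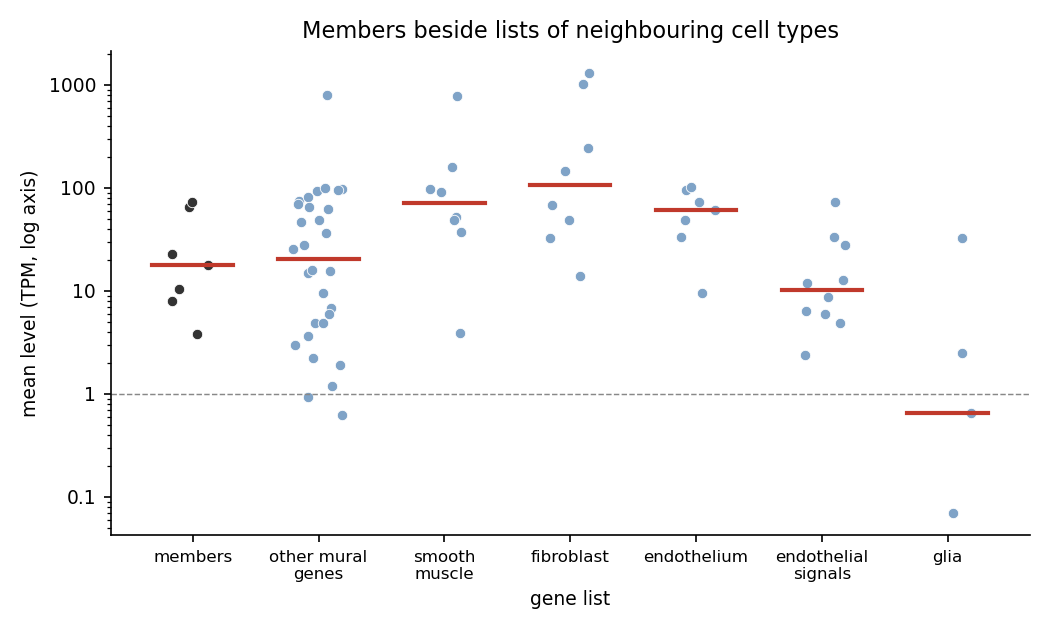
Mean level in TPM (log axis) of the 7 members and of the genes in 6 lists, 1 point per gene, with the red bar at the list's median and the dashed line at 1 TPM, and with the glial gene Olig2, at 0, left out of the points. The members' median of 17.6 TPM lies near that of the other mural genes and below those of the smooth muscle, fibroblast and endothelial lists, whose ranges overlap with the members'.

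The mitochondrial members were last set beside cytochrome c oxidase, the complex of Cox4i2, and beside hypoxia genes, since Ndufa4l2 and Cox4i2 are known to respond to low oxygen. A list of 12 nuclear genes of cytochrome c oxidase, without those of subunit 4, had a median of 424 ± 9.0 TPM, from Cox7a1, a muscle form, at 17.4 and 15.3 TPM to Cox6b1 at 926 and 922 TPM. Cox4i2 thus stood below the median of that list and above Cox7a1. Named outside the rule for naming genes, Cox6a2 at 21.0 and 16.5 TPM and Cox6b2 at 54.2 and 52.8 TPM were also below Cox4i2. The intervals of Cox6b2 and Cox4i2 overlapped in replicate 2. The other genes of that list were higher than Cox4i2. All 14 hypoxia genes passed the detection minimum, and their median level was 36.8 ± 2.94 TPM, from Car9, a carbonic anhydrase, at 5.19 and 3.93 TPM to Ldha, lactate dehydrogenase, at 1552 and 1634 TPM. After scaling, the 12 of them above 5 TPM had a median log2 difference of 0.12, beside 0.01 over all such genes. Ndufa4l2, Cox4i2 and Higd1b had log2 differences of -0.04, -0.06 and -0.26.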

How the data were processed

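Total RNA longer than 200 nt was sequenced from 10 ng per library. Per the file headers, the authors deposited the expected count, TPM and FPKM of genes and transcripts, and the percent of a gene's TPM in each transcript. The deposited tables also hold posterior means, and as scores the posterior SD of the count and the bounds of intervals whose level is not stated. Build mm10 with GENCODE M4 is given by the text deposited beside the tables; the sources used here do not give the program, its version or the strand use. GENCODE M21 on the same build gave names and positions (97.96% of identifiers matched). Features that name no gene, with 2.14% and 2.37% of reads, stayed out of library sizes. Expected counts were rounded for TMM (edgeR 4.0.16) and DESeq2 1.42.0 factors (R 4.3.3), either of which raised replicate 2 by 0.07 (log2). Between the libraries counts differed beyond sampling noise (chi-square per degree of freedom 6.66). Biopython 1.88 aligned sequences.

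No test was possible, since 1 group of 2 libraries leaves no contrast. SDs are over 2 libraries. Floors (3 reads) cover counting error only, and intervals cover counting and read assignment error but not differences between the pools. No genes of like pattern were named, because 1 group gives no pattern. The members and all lists were chosen with earlier results of these data known. The text names all members and relatives, the 3 highest and 2 lowest other mural genes, the highest and lowest of each other list, and listed genes apart between the pools. Ndufa4l3, Higd2b and Cspg4b were not analysed here, and promoters were used for 4 of 7 members. Alternatives covered the TPM minimum, unit, scaling, fold, transcript share and leaving out each replicate.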

Additional observations from a re-analysis of the deposited data

How the results depend on the processing

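Of 29 alternatives for the main counts and medians, 27 stayed within 1.5 times the main count, or within 1 SD of the main median. The median level of the members became 11.7 on the FPKM scale, which is another unit and not a lower TPM. With separate deposited intervals and no fold minimum, 1 member (Cspg4) differed between the pools, as did 17.4% of genes of at least 5 TPM. With the interval of replicate 2 scaled by TMM, an alternative chosen after seeing the data, the count was 0. The share of all genes was not computed for that alternative. With a replicate left out, the median was 16.9 to 18.4 TPM, and pairs with separate intervals were 19 to 20 of 21. Members detected and members with a leading transcript stayed at 7. Neither these counts nor the pairs with separate intervals could fall with a replicate left out, since the main rules ask for both libraries. The same holds for the 11 ratios of members to partners or relatives that were above 1. Nor could members detected fall at a minimum of 0.5 TPM, or the median move beyond its SD with a replicate left out. Members apart could not rise where 1 TPM was added to each level, which only shrinks a ratio. Such alternatives are among the 29 and say nothing of robustness. At a minimum of 5 TPM 6 members were detected, at a 2-fold minimum 16 pairs were separate, and at 90% of the gene's TPM 6 members had a leading transcript. No shares of all genes were computed at these minimums of 5 TPM and 90%, so the member counts there have no background. All 33 alternatives for single ratios stayed within the SD, which leaving out 1 of 2 libraries cannot exceed. No paired analysis was possible because both libraries form 1 group. Depth limits Kcnj11, with 11 and 5 reads, and the split of Higd1b between its transcripts.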

Other observations

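Vtn, the gene of vitronectin, is used as a pericyte marker in brain and is also made in large amounts by liver. It was named after its values were seen. It was at 1.04 TPM in replicate 1 and 8.64 TPM in replicate 2, a log2 difference of 3.13 after scaling, with intervals of 0.896 to 1.86 and 7.33 to 10.2 TPM. Its mean of 4.84 TPM fell short of the minimum of 5 TPM, so it was not called apart. The liver genes Alb, Afp and Apoa1 had log2 differences of 2.35, 2.4 and 2.23, while the 7 members lay between -0.26 and 0.17. The part of liver RNA in the Vtn level was not tested. Art3, another gene of the mural list named after its values were seen, went the other way, at 7.99 and 4.01 TPM, a log2 difference of -0.92.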
